A study of Mus musculus with 7 samples.

Results

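The mitochondrial ATP synthase is described here through the liver transcripts of 10 of its nuclear-encoded subunit genes, Atp5a1, Atp5b, Atp5c1, Atp5d, Atp5e, Atp5f1, Atp5g1, Atp5g2, Atp5g3 and Atp5o. They were chosen by name, as the rows of the deposited count table that carry these symbols, and all 10 were found among its 24421 gene symbols. The table holds poly(A) RNA-seq of 7 livers from C57BL/6 mice aged 36 weeks. The 4 livers called PrkciffAlbcre came from mice with floxed Prkci alleles and the AlbCre transgene (Prkciflox/floxAlbCre), and the 3 called Prkciff from mice with the same floxed alleles and no Cre named (Prkciflox/flox). Prkci encodes the atypical protein kinase C lambda/iota. Cre under the albumin promoter acts in hepatocytes, and bulk liver also holds cells in which it is not active. Both groups received the liver carcinogen diethylnitrosamine (DEN), 25 mg/kg into the peritoneum at 2 weeks of age, and ate a 60% fat diet for 32 weeks, from week 4 to week 36, so no untreated liver stands beside them. The labels do not say whether a piece of liver held tumour, and each library is taken as 1 mouse, which they do not state either. The series title names oxidative phosphorylation in hepatocytes as a subject of the study, and the genotype comparison of these subunits bears on that.

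ATP synthase makes ATP in the inner mitochondrial membrane, driven by protons that flow back into the matrix after the respiratory chain has pumped them out. A ring of c subunits in the membrane turns with the proton flow, the central stalk turns with it inside the F1 head, and the catalytic beta subunits of the head then release ATP. A peripheral stalk holds the head still. The liver depends on the enzyme for the ATP used in gluconeogenesis and urea synthesis.

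Levels are CPM, read counts relative to a library size that was scaled with TMM factors. Gene-assigned reads came to 49203615, 35198546, 28695455 and 37399081 in PrkciffAlbcre livers 1 to 4, against 23807580, 24935405 and 26556486 in Prkciff livers 1 to 3, so depth and genotype cannot be told apart. Prkci itself was at 30.0, 30.7, 28.2 and 28.7 CPM in the libraries labelled PrkciffAlbcre, against 23.3, 20.4 and 27.7 CPM in those labelled Prkciff. Reads from any exon that was not deleted enter this count as well, which leaves the labels unchecked. Prkciff 1 and Prkciff 2 stood apart from Prkciff 3 in the summed level of 27 acute phase genes. That sum was 51970, 55518, 57954 and 47848 CPM in PrkciffAlbcre livers, against 212953, 208454 and 54118 CPM in Prkciff livers. Not every gene of the list followed the sum. Saa3, picked with its values in view, was at 20.7, 20.8, 25.2 and 18.5 CPM in PrkciffAlbcre livers, against 29.7, 37.0 and 30.6 CPM in Prkciff livers. Of the 27, 3 passed in edgeR as lower in PrkciffAlbcre livers, against 0.953% of all genes. Over all genes, 172 were higher and 130 lower in PrkciffAlbcre livers (edgeR), 2.21% of those tested. With library size alone these were 418 and 80. The total of both directions was 77, 429, 55 and 67 without PrkciffAlbcre 1 to 4, and 36, 31 and 1310 without Prkciff 1 to 3.

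No subunit gene passed the test between the genotypes after correction over all genes, and 9 of the 10 had a fold change slightly above 0 in PrkciffAlbcre livers. Tests are edgeR's quasi-likelihood test with Benjamini-Hochberg adjustment over 13638 genes. Of the 10 genes, 0 passed an adjusted p of 0.05 in either direction, against a background of 1.26% of all tested genes higher and 0.953% lower. At an unadjusted p of 0.05 in edgeR, 2 genes were higher (Atp5c1 and Atp5f1; background 9.34%) and 0 were lower (background 8.67%). The number higher at that level was 4 without Prkciff 3, where the background was 12.1%, 3 without PrkciffAlbcre 1 (8.27%) and 0 without Prkciff 2 (6.69%). It was 1 without PrkciffAlbcre 2 (9.14%), PrkciffAlbcre 3 (7.64%), PrkciffAlbcre 4 (7.47%) or Prkciff 1 (7.14%). In 4 genes (Atp5a1, Atp5b, Atp5c1 and Atp5f1) every PrkciffAlbcre liver lay above every Prkciff liver, and in 0 genes all lay below, where the background is 8.63% above and 7.63% below. The log2 fold change, PrkciffAlbcre over Prkciff, was above 0 in 9 of the 10, against 48.9% of all genes, and its median was 0.24, against -0.01 over all genes tested. Library size alone, without TMM factors, moved the median of all genes to 0.22 and that of the 10 subunits to 0.46. The subunits stood 0.24 above all genes with library size alone and 0.25 above them with TMM factors. A change of scaling factors shifts all genes by nearly the same amount, so this gap could hardly change and is no check of it. The median of the 10 was 0.24 with all libraries thinned to equal depth, 0.24 with an acute phase score in the model, and 0.22 with Prkciff 3 as the lone control.

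**Figure D1:**
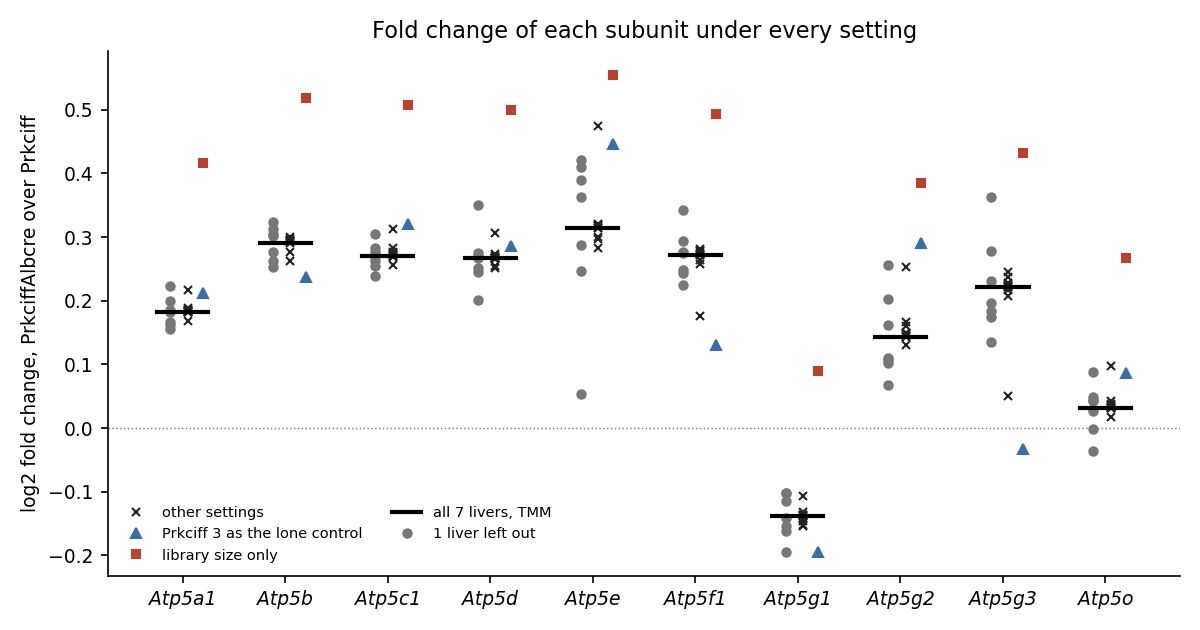
Log2 fold change of each subunit gene (vertical axis, PrkciffAlbcre over Prkciff) with all 7 livers and TMM factors (black lines), with 1 liver left out (grey circles), with library size only (red squares), with Prkciff 3 as the lone control (blue triangles) and under the other settings (crosses). Of 190 values, 185 kept their direction and their side of the threshold, 4 had the opposite sign (Atp5g1, Atp5g3 and Atp5o) and 1 passed the threshold (Atp5c1 in DESeq2). The settings refit the same livers and are not separate checks.

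The 3 genes for the c subunit encode the same mature protein, and their coding sequences show how far reads can tell them apart. The last 78 residues of the 3 precursors, which hold the mature c subunit, are identical. The genes differ in the residues ahead of them, 58 in Atp5g1, 68 in Atp5g2 and 63 in Atp5g3, which hold the leader that sends the protein to the mitochondrion. The 234 coding bases of the shared part follow, 5′ to 3′ from GENCODE M21 on GRCm38, the assembly of mm10, with capitals at the 63 positions where the 3 genes are not all alike. The genes lie on the minus strand at chr11:96068852-96075670 (Atp5g1), chr15:102662864-102672352 (Atp5g2) and chr2:73908447-73911326 (Atp5g3).
Atp5g1: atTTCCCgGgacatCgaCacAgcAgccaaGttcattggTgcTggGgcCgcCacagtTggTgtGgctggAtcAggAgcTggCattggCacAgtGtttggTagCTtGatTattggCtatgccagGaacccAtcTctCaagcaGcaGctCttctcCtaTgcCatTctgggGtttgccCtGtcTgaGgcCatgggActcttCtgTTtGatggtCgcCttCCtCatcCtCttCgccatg
Atp5g2: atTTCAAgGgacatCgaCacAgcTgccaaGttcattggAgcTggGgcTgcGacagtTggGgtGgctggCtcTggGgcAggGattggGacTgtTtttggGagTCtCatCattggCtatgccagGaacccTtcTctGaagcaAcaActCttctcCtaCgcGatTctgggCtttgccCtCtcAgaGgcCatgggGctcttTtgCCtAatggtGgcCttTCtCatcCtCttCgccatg
Atp5g3: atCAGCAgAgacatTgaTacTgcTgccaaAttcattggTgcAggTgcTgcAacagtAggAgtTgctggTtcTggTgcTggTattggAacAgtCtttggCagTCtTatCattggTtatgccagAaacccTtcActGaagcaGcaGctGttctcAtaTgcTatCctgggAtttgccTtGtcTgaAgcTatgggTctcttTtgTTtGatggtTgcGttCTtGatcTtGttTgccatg
Atp5g1 and Atp5g2 are identical at 84.6% of these bases, with a longest identical run of 20, and Atp5g3 is identical to Atp5g1 at 78.6% and to Atp5g2 at 77.4%. No run as long as a read of 75 nt is shared between the 3 genes in this part. Other loci do share such runs. Of the 75-nt windows in the coding sequence, 100% of those of Atp5g2 and 92.8% of those of Atp5g1 also occur in another annotated locus, against 33.9% for Atp5f1, 13.8% for Atp5o and 0 for the other 6 genes. The loci that share them (Gm10175 and Gm10231 for Atp5g2, Gm10039 for Atp5g1) are not among the symbols of the table used here, and how such reads were counted is not given in the sources used here. The levels of Atp5g1 and Atp5g2 are uncertain for this reason.

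The alpha and beta subunits alternate in the F1 head, and beta carries the catalytic sites. Atp5b (chr10:128083273-128090391, plus strand), which encodes beta, was at 1036, 1177, 1149 and 1089 CPM in PrkciffAlbcre livers 1 to 4, against 925, 861 and 943 CPM in Prkciff livers 1 to 3. All PrkciffAlbcre livers were above all Prkciff livers, and PrkciffAlbcre 1 was the lowest of them. The mean was 1113 ± 63.3 CPM (SD, n = 4) in PrkciffAlbcre and 909 ± 43.2 CPM (SD, n = 3) in Prkciff, a log2 fold change of 0.29 (SE 0.14, adjusted p = 0.310 in edgeR). Atp5a1 (chr18:77773729-77782869, plus strand), which encodes alpha, was at 862, 993, 972 and 935 CPM in PrkciffAlbcre livers, against 827, 849 and 811 CPM in Prkciff livers. Here too the groups did not overlap, and PrkciffAlbcre 1 was nearest to the Prkciff livers. Its means were 940 ± 57.2 CPM (SD, n = 4) in PrkciffAlbcre and 829 ± 19.0 CPM (SD, n = 3) in Prkciff, and its log2 fold change was 0.18 (SE 0.13, edgeR adjusted p = 0.525). The CPM of Atp5a1 divided by that of Atp5b was 0.833, 0.843, 0.846 and 0.859 in PrkciffAlbcre livers, against 0.894, 0.986 and 0.860 in Prkciff livers. The ratio was lower in every PrkciffAlbcre liver, but PrkciffAlbcre 4 and Prkciff 3 nearly met.

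The gamma, delta and epsilon subunits form the central stalk that turns inside the head. Atp5c1 (chr2:10056016-10080510, minus strand), which encodes gamma, was at 219, 212, 226 and 216 CPM in PrkciffAlbcre livers, against 190, 179 and 175 CPM in Prkciff livers. This was the steadiest of the 10 genes, with a within-group SD of 0.0487 on the log2 scale against a median of 0.115 over the 10 and 0.229 over all tested genes. The groups did not overlap, and the log2 fold change of 0.27 (SE 0.099, 95% interval 0.05 to 0.49) had an unadjusted p of 0.0213 and an adjusted p of 0.188 in edgeR. DESeq2 gave Atp5c1 an adjusted p of 0.0465, where 612 of 14624 genes were called higher (4.18%), and it was the 1 member called there. No member was called in limma-voom, where 0.513% of genes were called higher, or in edgeR without Prkciff 3, where 4.69% were. Over all alternative settings the adjusted p of Atp5c1 ran from 0.0465 to 0.517. Atp5d (chr10:80138632-80145818, plus strand), which encodes delta, was at 127, 161, 175 and 154 CPM in PrkciffAlbcre livers, against 130, 129 and 126 CPM in Prkciff livers. PrkciffAlbcre 1 lay within the narrow Prkciff range and the other 3 above it, with a log2 fold change of 0.27 (SE 0.12, adjusted p = 0.283 in edgeR). Atp5e (chr2:174461072-174464105, minus strand), which encodes the small epsilon subunit, was at 76.8, 83.4, 149 and 89.6 CPM in PrkciffAlbcre livers, against 90.4, 77.2 and 73.2 CPM in Prkciff livers. The groups overlapped, and PrkciffAlbcre 3 stood far above all other livers. Its log2 fold change of 0.31 (SE 0.23, adjusted p = 0.522 in edgeR) became 0.05 without PrkciffAlbcre 3.

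**Figure D2:**
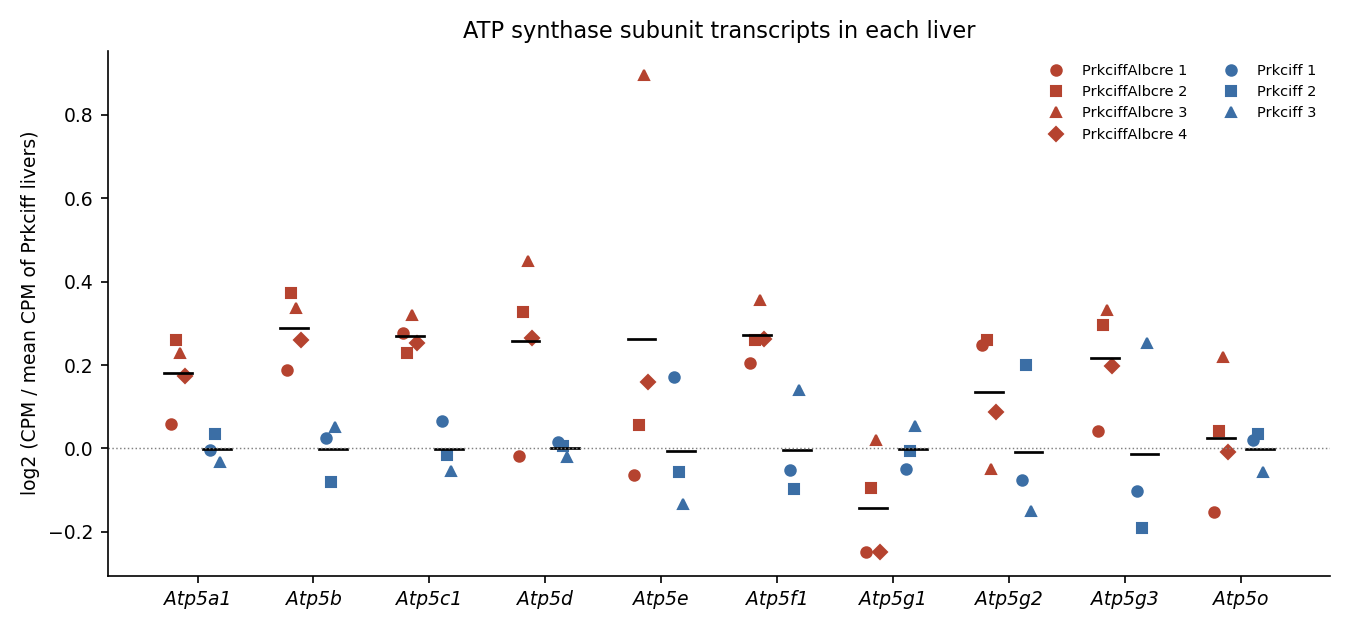
Level of each of the 10 subunit transcripts in every liver, as log2 of its CPM over the mean CPM of the 3 Prkciff livers (vertical axis), with PrkciffAlbcre livers left (red) and Prkciff livers right (blue) for each gene on the horizontal axis and black lines at the group means. PrkciffAlbcre points lie wholly above Prkciff points for Atp5a1, Atp5b, Atp5c1 and Atp5f1, and the Atp5e point of PrkciffAlbcre 3 stands apart at 0.90.

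In the c ring, Atp5g3 and Atp5g1 had fold changes of opposite sign, although neither passed. Atp5g3, the most abundant of the 3 c subunit genes, was at 323, 385, 395 and 360 CPM in PrkciffAlbcre livers, against 292, 275 and 374 CPM in Prkciff livers. Prkciff 3 lay among the PrkciffAlbcre livers and the other Prkciff livers below them, with a log2 fold change of 0.22 (SE 0.14, adjusted p = 0.465 in edgeR). The value was 0.36 without Prkciff 3 and 0.14 without Prkciff 2, and with Prkciff 3 as the lone control it was -0.03. Atp5g1 was at 40.8, 45.3, 49.1 and 40.8 CPM in PrkciffAlbcre livers, against 46.8, 48.2 and 50.3 CPM in Prkciff livers. It was the 1 gene of the 10 with a log2 fold change below 0, at -0.14 (SE 0.099, edgeR adjusted p = 0.510), with overlapping groups. That direction depended on the scaling, since library size alone gave 0.09. Atp5g2 was at 11.8, 11.9, 9.58 and 10.5 CPM in PrkciffAlbcre livers, against 9.41, 11.4 and 8.93 CPM in Prkciff livers. Its groups overlapped, with a log2 fold change of 0.14 (SE 0.15, adjusted p = 0.674 in edgeR), which was 0.068 without Prkciff 3 and 0.26 without Prkciff 2.

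A ratio of 2 genes within a library does not depend on its scaling. The CPM of Atp5g3 divided by that of Atp5g1 was 7.92, 8.49, 8.04 and 8.82 in PrkciffAlbcre livers, against 6.24, 5.70 and 7.43 in Prkciff livers. Every PrkciffAlbcre liver was above every Prkciff liver, with Prkciff 3 nearest to them. Per kilobase of annotated exons, Atp5g1 made up 4.89 ± 0.227% of the summed level of the 3 genes in PrkciffAlbcre livers (SD, n = 4) and 6.25 ± 0.713% in Prkciff livers (SD, n = 3). Its exon union of 4912 nt is far longer than the 596 nt of its annotated transcript with the longest coding sequence, so the share depends on the length used. With the length of that transcript for every gene, an alternative added after the data were seen, Atp5g1 made up 12.5, 11.8, 12.5 and 11.5% in PrkciffAlbcre livers, against 15.4, 16.5 and 13.4% in Prkciff livers. The groups did not overlap in this share under any of the 4 scalings used. These differ only in a constant per gene, so they repeat nearly the same comparison as the ratio above and add little to it. Per exon length the difference stayed between -1.74 and -1.04 percentage points when any 1 library was left out. With the transcript length Atp5g3 made up 83.8 ± 0.826% in PrkciffAlbcre livers (SD, n = 4) and 80.7 ± 2.54% in Prkciff livers (SD, n = 3), with overlapping groups. Atp5g2 made up 4.10 ± 0.646% in PrkciffAlbcre livers (SD, n = 4) and 4.23 ± 1.01% in Prkciff livers (SD, n = 3), also with overlapping groups. No test was made of these shares. An exact permutation test of 4 against 3 libraries cannot give a two-sided p below 0.0571. The shared windows described above leave the level of Atp5g1 itself uncertain, and their part in this difference was not tested.

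**Figure D3:**
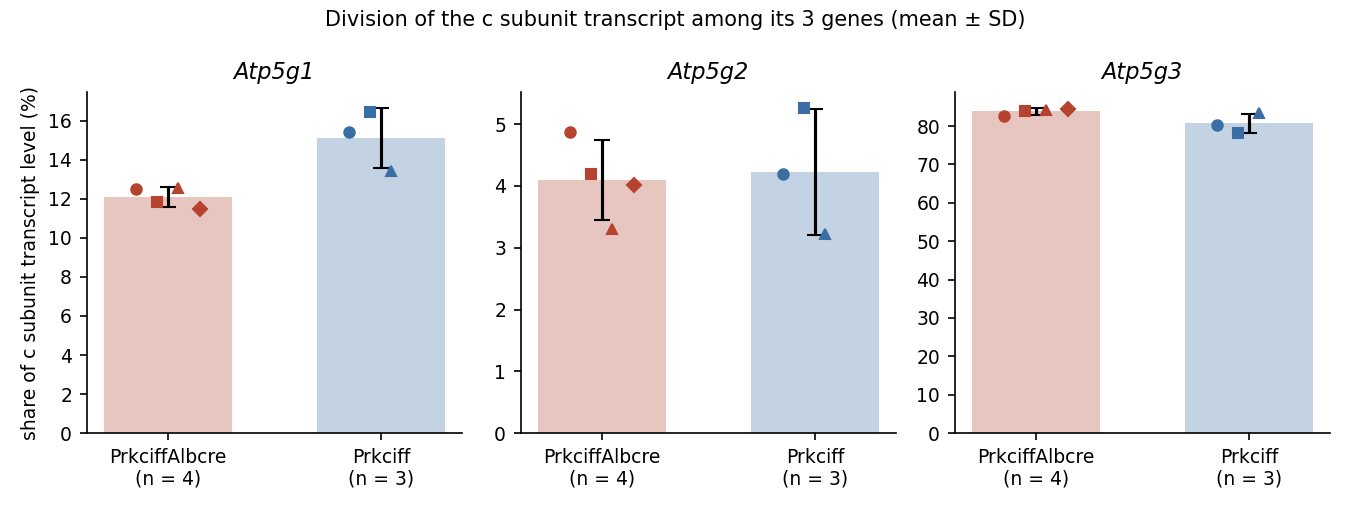
Share (%) of Atp5g1, Atp5g2 and Atp5g3 in the summed level of the 3 c subunit genes, each level scaled by the length of the transcript with the longest coding sequence. Bars are group means with SD (PrkciffAlbcre left, n = 4; Prkciff right, n = 3), points are livers, and each panel has its own axis from 0; the Atp5g1 share averaged 12.1% in PrkciffAlbcre and 15.1% in Prkciff with no overlap.

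Atp5f1 and Atp5o belong to the peripheral stalk. Atp5f1 (chr3:105942698-105960099, minus strand; Atp5pb in RefSeq), which encodes subunit b, the long arm of the stalk, was at 241, 251, 268 and 251 CPM in PrkciffAlbcre livers, against 202, 195 and 230 CPM in Prkciff livers. The groups did not overlap, and Prkciff 3 was closest to the PrkciffAlbcre livers. The log2 fold change was 0.27 (SE 0.11, 95% interval 0.02 to 0.52), with an unadjusted p of 0.0343 and an adjusted p of 0.233 in edgeR. Atp5o (chr16:91925214-91931687, minus strand), which encodes the oligomycin sensitivity-conferring protein between the stalk and the head, was at 90.7, 104, 117 and 100.3 CPM in PrkciffAlbcre livers, against 102, 103 and 96.9 CPM in Prkciff livers. The Prkciff values lay inside the PrkciffAlbcre range, and the log2 fold change was 0.03 (SE 0.11, 95% interval -0.21 to 0.27, edgeR adjusted p = 0.914). The direction turned without PrkciffAlbcre 3 (-0.04) and without Prkciff 3 (-0.0017). The name Atp5o stands on 2 annotated loci, which adds to the uncertainty of its count. The CPM of Atp5o divided by that of Atp5f1 was 0.376, 0.414, 0.439 and 0.400 in PrkciffAlbcre livers, against 0.507, 0.529 and 0.421 in Prkciff livers. Prkciff 1 and Prkciff 2 were above all other livers in this ratio, and Prkciff 3 lay inside the PrkciffAlbcre range.

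**Figure D4:**
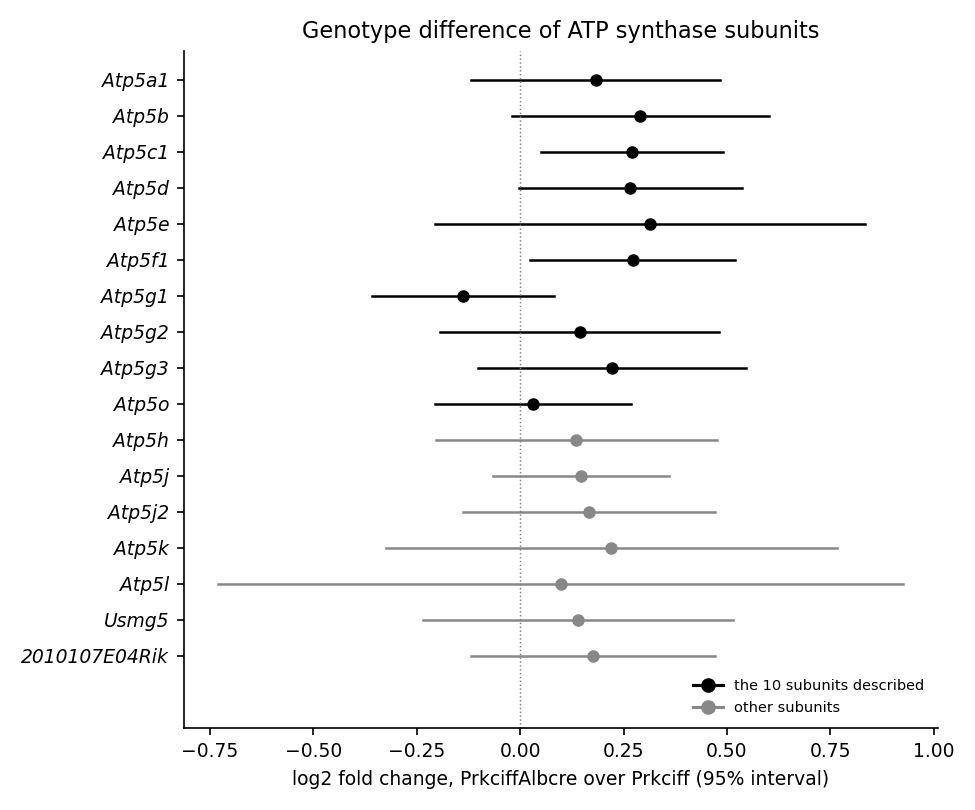
Log2 fold change of PrkciffAlbcre over Prkciff (horizontal axis) with its 95% interval from edgeR for the 10 subunit genes (black) and the other 7 subunit genes of the table (grey). Of the 10, 9 points lie to the right of 0, and the intervals of Atp5c1 and Atp5f1 alone among all rows do not reach 0.

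Levels can be compared between genes only per length. Per kilobase of the transcript with the longest coding sequence, Atp5b had the highest level, 581 ± 33.0 CPM per kilobase in PrkciffAlbcre livers (SD, n = 4) and 475 ± 22.5 in Prkciff livers (SD, n = 3). Atp5g3 followed with 512 ± 45.0 in PrkciffAlbcre and 439 ± 74.0 in Prkciff livers, and then Atp5a1 with 381 ± 23.1 in PrkciffAlbcre and 335 ± 7.70 in Prkciff livers. Atp5e, Atp5c1, Atp5d, Atp5f1 and Atp5o came next in this order, from 237 ± 79.6 to 123 ± 13.2 CPM per kilobase in PrkciffAlbcre livers and from 191 ± 21.4 to 120.4 ± 4.11 in Prkciff livers. Each of these 8 genes overlapped its neighbour in the order in its range over the 7 livers. That comparison of ranges does not compare 2 genes within the same liver. Atp5g1, at 73.8 ± 6.77 in PrkciffAlbcre and 81.2 ± 2.95 in Prkciff livers, and Atp5g2, at 24.8 ± 2.47 in PrkciffAlbcre and 22.5 ± 2.96 in Prkciff livers, stood below all others without overlap. Per kilobase of all annotated exons the order began with Atp5a1, Atp5b and Atp5g3 and ended with the same pair. The middle of the order depended on the length used. Atp5e ranked 4 with the transcript of the longest coding sequence, a length added after the data were seen. It ranked 7 per kilobase of all exons and 8 per kilobase of the longest transcript. With the longest transcript Atp5g2 (rank 9) stood above Atp5g1 (rank 10). As shares of the summed level of the 10 genes per exon length, the F1 head and central stalk took 73.3 ± 0.165% in PrkciffAlbcre and 72.4 ± 2.15% in Prkciff livers, and the c ring 16.5 ± 0.299% in PrkciffAlbcre and 16.8 ± 2.11% in Prkciff livers, both with overlapping groups. The peripheral stalk took 10.2 ± 0.213% in PrkciffAlbcre and 10.8 ± 0.121% in Prkciff livers. This share did not overlap between groups in 3 of the 4 scalings and overlapped in plain CPM.

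The PrkciffAlbcre livers were not alike in their subunit levels. The mean over the 10 genes of the log2 level relative to the Prkciff mean was 0.06, 0.20, 0.31 and 0.14 in PrkciffAlbcre livers 1 to 4, against 0.01, -0.01 and 0.01 in Prkciff livers 1 to 3. PrkciffAlbcre 1 was nearest to the Prkciff livers and PrkciffAlbcre 3 farthest. PrkciffAlbcre 3 had the highest level of all livers in 6 of the 10 genes and PrkciffAlbcre 2 in 3, while Prkciff 3 had the highest in 1 (Atp5g1) and the lowest in 5. As a share of gene-assigned reads with no further scaling, the 10 genes took 0.329, 0.366, 0.374 and 0.349% in PrkciffAlbcre livers, against 0.234, 0.233 and 0.305% in Prkciff livers. In this measure Prkciff 3 stood near the PrkciffAlbcre livers, and Prkciff 1 and Prkciff 2 were lower.

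PrkciffAlbcre 3 was high in the short subunit transcripts more than in the long ones, a comparison made after the data were seen. The difference between PrkciffAlbcre 3 and the mean of the other PrkciffAlbcre livers, in log2, had a median of 0.26 over the 12 subunit genes with a transcript under 1000 nt, from -0.25 for Atp5g2 to 0.85 for Atp5e. It had a median of 0.07 over the 4 of 1000 nt or more, from 0.06 to 0.11. Over all tested genes with a known length (92.9%), the same library also differed by length. Deviations here are from each gene's mean over all libraries of both groups, so they also hold any genotype difference. In the 923 genes under 1 kb the median deviation was 0.17 in PrkciffAlbcre 3 and -0.12 in Prkciff 3. It was between -0.04 and 0.01 in the other 5 libraries. In the 3522 genes over 4 kb it was -0.09 in PrkciffAlbcre 3 and 0.05 in Prkciff 3. The part of transcript length in the subunit differences was not tested, and without PrkciffAlbcre 3 the median log2 fold change of the 10 genes was 0.19.

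**Figure D5:**
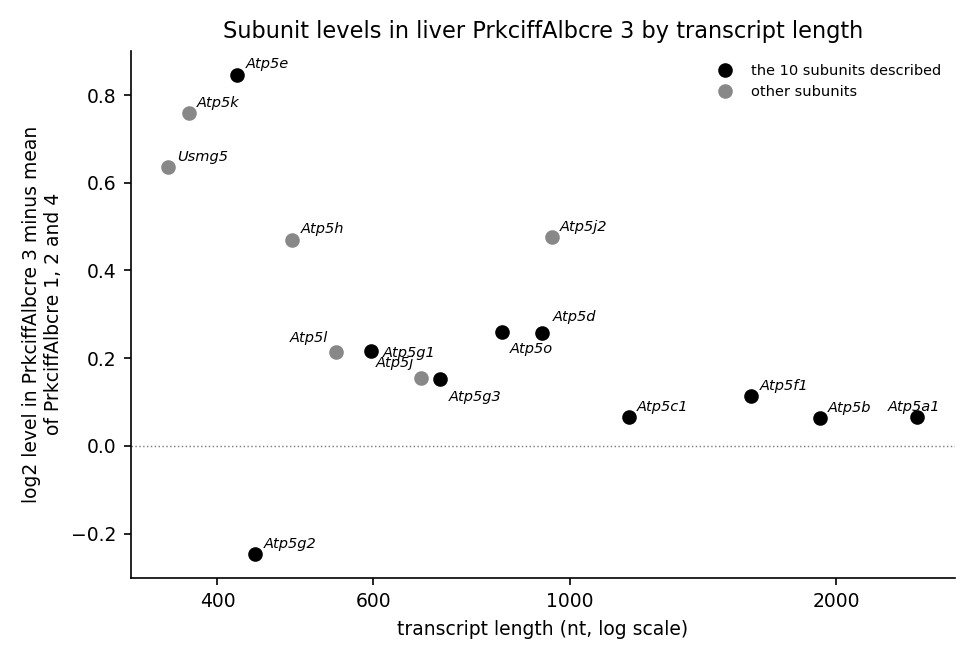
Difference between liver PrkciffAlbcre 3 and the mean of PrkciffAlbcre 1, 2 and 4 in log2 level (vertical axis) against the length in nt of the transcript with the longest coding sequence (horizontal log axis), for the 10 subunit genes described (black) and other subunit genes (grey). The 4 genes of 1000 nt or more lie between 0.06 and 0.11, and the shorter ones spread from -0.25 to 0.85.

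The promoters of the members that stood apart are shown for the motifs of factors known to act on nuclear genes of mitochondrial proteins. Each run below is the 250 bases before the start site in the RefSeq promoter table for GRCm38.p6, on the strand of the gene, with motif matches in capitals. Atp5b, Atp5c1 and Atp5f1 are shown as 3 of the 4 genes whose groups did not overlap (the other is Atp5a1), and Atp5g1 and Atp5g3 because they differed from each other. The windows are chr10:128083057-128083306 (Atp5b, plus strand), chr2:10080433-10080682 (Atp5c1, minus strand, the further downstream of its 2 listed starts), chr3:105959264-105959513 (Atp5f1, minus strand), chr11:96075632-96075881 (Atp5g1, minus strand) and chr2:73911327-73911576 (Atp5g3, minus strand).
Atp5b: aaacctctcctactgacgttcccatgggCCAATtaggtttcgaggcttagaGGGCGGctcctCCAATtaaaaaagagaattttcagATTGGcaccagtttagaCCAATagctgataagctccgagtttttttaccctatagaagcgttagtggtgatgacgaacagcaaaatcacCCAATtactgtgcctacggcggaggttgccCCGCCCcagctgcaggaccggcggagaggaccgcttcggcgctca
Atp5c1: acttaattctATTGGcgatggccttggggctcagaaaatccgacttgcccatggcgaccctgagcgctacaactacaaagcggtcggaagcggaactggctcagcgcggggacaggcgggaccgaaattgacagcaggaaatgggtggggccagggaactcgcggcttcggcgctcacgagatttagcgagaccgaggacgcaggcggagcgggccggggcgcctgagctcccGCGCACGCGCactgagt
Atp5f1: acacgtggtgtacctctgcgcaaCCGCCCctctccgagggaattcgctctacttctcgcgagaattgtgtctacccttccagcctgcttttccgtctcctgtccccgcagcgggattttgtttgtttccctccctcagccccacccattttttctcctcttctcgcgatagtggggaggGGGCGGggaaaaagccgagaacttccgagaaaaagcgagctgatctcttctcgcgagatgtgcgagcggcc
Atp5g1: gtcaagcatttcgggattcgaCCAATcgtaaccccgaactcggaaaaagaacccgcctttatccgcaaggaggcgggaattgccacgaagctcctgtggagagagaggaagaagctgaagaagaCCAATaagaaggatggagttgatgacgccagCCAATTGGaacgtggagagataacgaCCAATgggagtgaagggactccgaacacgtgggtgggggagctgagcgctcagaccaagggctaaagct
Atp5g3: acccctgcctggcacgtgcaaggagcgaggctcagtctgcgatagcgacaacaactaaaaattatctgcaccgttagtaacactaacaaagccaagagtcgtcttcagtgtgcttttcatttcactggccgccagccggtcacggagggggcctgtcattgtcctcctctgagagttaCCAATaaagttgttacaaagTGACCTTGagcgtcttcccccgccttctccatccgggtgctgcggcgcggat
Searched on both strands were the NRF1 motif (its GC-rich consensus, with any base allowed at 1 position), the ETS motif CCGGAAG, the estrogen-related receptor motif CAAGGTCA, the CCAAT box CCAAT, the GC box GGGCGG and the YY1 motif AAGATGGC. The windows of the 9 members other than Atp5a1 were searched. Atp5c1 and Atp5d have 2 listed starts each, and a motif in either window was counted, while the shares given for all promoters are per single window. The NRF1 motif was in 2 of 9, against 3.77% of all 32536 promoter windows. It lay 42 bases before the start of Atp5g2 and 17 bases before the downstream start of Atp5c1. The window of the other Atp5c1 start had no NRF1 match. The estrogen-related receptor motif was in 1 of 9 (Atp5g3, 52 bases before the start), against 1.33%, and the ETS motif in 1 of 9 (Atp5e), against 6.95%. The CCAAT box was in 5 of 9, against 33.8%, with 5 matches each in Atp5b and Atp5g1, some of them overlapping in Atp5g1. The GC box was in 3 of 9, against 33.0%, and the YY1 motif in 0 of 9, against 1.57%. Atp5b, Atp5c1 and Atp5f1 had no motif of this set present in all 3 windows. A match describes the letters of the window only.

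No subunit gene outside the set passed the test in edgeR, DESeq2 or limma-voom. Of the other 7 subunit genes of the table, 0 passed in edgeR in either direction and 0 had an unadjusted p under 0.05. All 7 had a log2 fold change above 0, against 48.9% of all genes, with a median of 0.15. That median was 0.033 without PrkciffAlbcre 3. Atp5j, which encodes subunit F6 of the peripheral stalk, was at 128, 135, 147 and 133 CPM in PrkciffAlbcre livers, against 125, 126 and 117 CPM in Prkciff livers, with no overlap. Its log2 fold change was 0.15 (SE 0.095, edgeR adjusted p = 0.460). Atp5h, which encodes subunit d of the same stalk, was at 114, 123, 167 and 125 CPM in PrkciffAlbcre livers, against 137, 121 and 103 CPM in Prkciff livers. Its groups overlapped (log2 fold change 0.14, SE 0.15, edgeR adjusted p = 0.697). The value was 0.0042 without PrkciffAlbcre 3, 0.030 without Prkciff 3 and 0.24 without Prkciff 1, and 54.3% of its 75-nt coding windows also occur in Gm10250, which leaves its level uncertain. Atp5l, picked with its values in view, stood at 0.878, 1.49, 1.31 and 1.07 CPM in PrkciffAlbcre livers, against 1.11, 1.17 and 1.03 CPM in Prkciff livers. All of its 75-nt coding windows also occur in other annotated loci, such as Gm10221.

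None of the genes that assemble ATP synthase or restrain it passed the test in edgeR, DESeq2 or limma-voom. Of 7 tested, 0 passed in edgeR and 0 had an unadjusted p under 0.05. Above 0 were 4, against 48.9% of all genes, and the median was 0.07. The sign of that median turned without Prkciff 1 (-0.038) and without PrkciffAlbcre 3 (-0.0054). Tmem70, needed to assemble the c ring, was at 52.4, 51.6, 49.5 and 46.9 CPM in PrkciffAlbcre livers, against 39.9, 51.5 and 51.4 CPM in Prkciff livers. Tmem242, which acts in the same step in human cells, was at 29.5, 31.7, 39.0 and 31.2 CPM in PrkciffAlbcre livers, against 30.3, 36.9 and 32.1 CPM in Prkciff livers. Both overlapped between groups.

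Among genes listed for nucleotide and phosphate exchange, the calls depended on the tool and on 1 library. The list holds carriers and kinases, and also the outer membrane channels Vdac1, Vdac2 and Vdac3, and Ppif, which is none of these. Of 13 tested, 0 passed in edgeR with all 7 livers. At an unadjusted p of 0.05 in edgeR, 4 were higher and 1 was lower, against 9.34% and 8.67% of all genes. The median was 0.19, or 0.12 without Prkciff 1. In DESeq2 2 of 14 passed as higher (Slc25a5 and Slc25a24) and 2 as lower (Slc25a23 and Slc25a31), against 612 and 505 of 14624 genes. Slc25a31 failed the low-count filter of the edgeR fit. Genes of this list that failed it reached at most 2.11 CPM in any library, with library size alone. In limma-voom 0 passed. In edgeR without Prkciff 3 Slc25a5 passed as higher and Slc25a23 as lower, against 659 and 651 of 14056 genes. Of the carriers with a call, all but Slc25a5 are named for it, with values in view. Slc25a5, an ADP/ATP carrier of the inner membrane, was at 333, 345, 343 and 338 CPM in PrkciffAlbcre livers, against 255, 260 and 296 CPM in Prkciff livers. The groups did not overlap, with a log2 fold change of 0.33 (SE 0.11, adjusted p = 0.160 in edgeR). Its adjusted p was 0.0243 in DESeq2 and 0.0406 in edgeR without Prkciff 3, and 39.6% of its 75-nt coding windows also occur in other loci. Ak3, an adenylate kinase of the matrix, was at 425, 441, 383 and 439 CPM in PrkciffAlbcre livers, against 413, 429 and 442 CPM in Prkciff livers, with overlapping groups.

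Subunits of the respiratory chain, which builds the proton gradient, were also mostly above 0, and none passed in edgeR with all 7 livers, in DESeq2 or in limma-voom. Of 36 complex I genes, 0 passed in edgeR. At an unadjusted p of 0.05 in edgeR, 5 were higher and 0 lower, against 9.34% and 8.67% of all genes. Above 0 were 33, against 48.9% of all genes, and the median was 0.18, or 0.099 without PrkciffAlbcre 3. Without Prkciff 3, 1 of the 36 passed in edgeR as higher (Ndufb6, named for that call), against 4.69% of all genes. Ndufa4, on that list although also assigned to complex IV, was at 210, 218, 280 and 225 CPM in PrkciffAlbcre livers, against 198, 183 and 183 CPM in Prkciff livers, a log2 fold change of 0.31 (SE 0.13, adjusted p = 0.240 in edgeR). Of 26 genes of complexes II to IV, 0 passed in edgeR. With all 7 livers, 8 were higher and 0 lower at an unadjusted p of 0.05 in edgeR, against 9.34% and 8.67% of all genes. Above 0 were 25, against 48.9% of all genes, and the median was 0.24. Sdha, the flavoprotein of complex II, was at 497, 554, 538 and 560 CPM in PrkciffAlbcre livers, against 414, 400 and 505 CPM in Prkciff livers. PrkciffAlbcre 1 lay below Prkciff 3, and the log2 fold change was 0.29 (SE 0.14, edgeR adjusted p = 0.298). Cox4i1, a subunit of complex IV, had a value of 0.14 (SE 0.13, edgeR adjusted p = 0.625), which was 0.22 without PrkciffAlbcre 1 and 0.088 without PrkciffAlbcre 3.

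Among 21 known regulators of mitochondrial biogenesis, 1 rose, 0 fell and 20 did not pass in edgeR. Of all genes, 1.26% rose and 0.953% fell in edgeR. The median log2 fold change of the regulators was -0.07, or -0.019 without Prkciff 3. The gene that rose was Esrra, which encodes the nuclear receptor ERR alpha, a known activator of mitochondrial genes. It was at 30.6, 31.9, 34.3 and 34.2 CPM in PrkciffAlbcre livers, against 22.4, 23.9 and 24.8 CPM in Prkciff livers. The groups did not overlap, and the log2 fold change was 0.47 (SE 0.098, edgeR adjusted p = 0.0414). It did not pass without PrkciffAlbcre 1, 2, 3 or 4 (edgeR adjusted p = 0.0712, 0.0585, 0.107 and 0.124) or without Prkciff 1 or 2 (edgeR adjusted p = 0.158 and 0.155), and without Prkciff 3 its adjusted p was 0.0226. The call was also lost in limma-voom (adjusted p = 0.0695), and in edgeR with the acute phase score in the model, with a replicate block and with Prkciff 3 as the lone control (adjusted p = 0.176, 0.202 and 0.399). It held in DESeq2 (adjusted p = 0.00495), and the log2 fold change stayed between 0.43 and 0.50 with any 1 library left out.

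The 8 genes outside the set whose level followed the mean of the 10 subunits most closely over the 7 livers were Rnf215, Ndufb2, Zdhhc7, Mesdc2, Dalrd3, Rnf187, Atp5j and Stx4a. Likeness was the root mean square difference of centred log2 CPM, which ran from 0.0286 for Rnf215 to 0.0470 for Stx4a, against a median of 0.260 over 12838 genes. A flat profile would have 0.114. Ndufb2 is a complex I subunit and Atp5j an ATP synthase subunit, and 0 of the 8 passed in edgeR. The members themselves differed in how well they followed their own mean, from 0.0468 for Atp5a1, closer than Stx4a, to 0.242 for Atp5e.

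Markers of liver cell types also differed in places between the groups. Hepatocyte markers were present in every library, with a summed level from 75611 to 86618 CPM in PrkciffAlbcre livers and from 90677 to 130736 CPM in Prkciff livers. Of these 15, 0 passed in edgeR. At an unadjusted p of 0.05 in edgeR, 2 were lower and 0 higher, against 8.67% and 9.34% of all genes. Above 0 were 4, against 48.9% of all genes, and the median log2 fold change was -0.28. In DESeq2 2 of the 15 (Ahsg and Apoa1) passed as lower, against 505 of 14624 genes.

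Neutrophil markers summed to between 12.4 and 15.9 CPM in PrkciffAlbcre livers and to 258, 63.3 and 15.3 CPM in Prkciff livers. Of 5 tested, 0 passed in edgeR and 4 were lower at an unadjusted p of 0.05, with a median of -3.89, and in DESeq2 4 of 7 passed as lower. Beside the counts of this paragraph, 8.67% of all genes were lower and 9.34% higher at an unadjusted p of 0.05 in edgeR. DESeq2 called 505 of 14624 genes lower. Of 11 macrophage markers, 0 passed in edgeR, 1 was higher and 3 were lower at an unadjusted p of 0.05, and the median was -0.62. All 9 endothelial markers had a log2 fold change below 0, where 48.9% of all genes were above 0, and their median was -0.23. In 3 of them every PrkciffAlbcre liver lay below every Prkciff liver, against 7.63% of all genes. In edgeR 0 of the 9 passed, and 3 were lower at an unadjusted p of 0.05. DESeq2 called 1 macrophage marker (Itgam) and 1 endothelial marker (Kdr) lower. Of 9 lymphocyte markers, 0 passed in edgeR or DESeq2, 1 was higher at an unadjusted p of 0.05 in edgeR, and the median was -0.22. Of 7 cholangiocyte and progenitor markers, 0 passed in edgeR or DESeq2, 1 was lower at an unadjusted p of 0.05 in edgeR, and the median was -0.23.

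Of 10 stellate cell and fibroblast markers, 1 rose in edgeR, against 1.26% of all genes. At an unadjusted p of 0.05 in edgeR, 5 were higher and 2 lower, against 9.34% and 8.67% of all genes. Above 0 were 6, against 48.9% of all genes, with a median of 0.83. The groups did not overlap in 6 of the 10, with 4 above and 2 below, against 8.63% and 7.63% of all genes. Timp1, an inhibitor of matrix proteases, was the 1 that rose (log2 fold change 2.45, edgeR adjusted p = 0.0322). Its level was low, at 2.88, 1.17, 3.47 and 2.93 CPM in PrkciffAlbcre livers, against 0.304, 0.610 and 0.498 CPM in Prkciff livers. It did not pass in edgeR without PrkciffAlbcre 1, 3 or 4 or without Prkciff 1 or 2, and its adjusted p in limma-voom was 0.157. Col1a1, a chain of fibrillar collagen named with its values in view, was at 55.5, 21.2, 48.7 and 37.6 CPM in PrkciffAlbcre livers, against 3.14, 5.25 and 11.4 CPM in Prkciff livers (log2 fold change 2.61, edgeR adjusted p = 0.0726). Lrat, which stores retinol in quiescent stellate cells and was named in the same way, was at 8.24, 8.51, 6.05 and 8.87 CPM in PrkciffAlbcre livers, against 10.6, 14.2 and 18.2 CPM in Prkciff livers (log2 fold change -0.85, edgeR adjusted p = 0.0620). DESeq2 called 4 of the 10 higher, Col1a1 and Timp1 among them, and 2 lower, Lrat among them. Of 14624 genes, DESeq2 called 612 higher and 505 lower.

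Of 8 adipocyte and muscle markers 0 passed the filter on low counts, and Plin1 and Ucp1 were at 0 in every library. The part of cell composition in the subunit levels was not tested, and in bulk liver fewer cells of a type and less RNA per cell cannot be told apart.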

How the data were processed

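Liver poly(A) RNA of 4 PrkciffAlbcre and 3 Prkciff mice was made into strand-specific libraries and read from a single end over 75 nt, per the labels' protocols. The deposited values are the authors' raw read counts per gene symbol. The submitters' processing notes name STAR, DESeq2 and the mm10 build without roles or versions, with the program that counted reads and its annotation not given in the sources used here. The 2 entries that name no gene, reads in no feature (8.62% to 16.3% per library) and ambiguous reads (0.433% to 0.575%), stayed out of library sizes and tests. Of the per-sample columns, 0 went unused. With 23807580 to 49203615 gene-assigned reads, 3 reads correspond to 0.061 to 0.126 CPM. This floor covers counting error only, and p-values measure the spread between these libraries, which are not stated to be separate animals.

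Groups were taken from the sample titles. Counts were fitted with edgeR 4.0.16 in R 4.3.3 (TMM factors, filterByExpr with a minimum count of 10, robust glmQLFit, two-sided quasi-likelihood test of genotype, Benjamini-Hochberg adjustment over 13638 genes, threshold 0.05), after the steps were tested on simulated data. All 10 members passed the filter. Alternatives were DESeq2 1.42.0, limma-voom (limma 3.58.1), RLE and upper-quartile factors, no robust estimation, other low-count filters, a replicate block, an acute phase covariate, thinning, each library left out, and Prkciff 1 and 2 left out together; library size only and the coding transcript length were added after the data were seen. Libraries of a group differed by more than sampling noise (smallest chi-square over its degrees of freedom 38.8). Shares and levels per length used CPM per kilobase of GENCODE M21 exons. All 10 members are named, up to 4 genes of each other list (those with the smallest p past the threshold, or the 2 most abundant), the 8 nearest profiles and Prkci. A gene that this rule names is not reported here. The members, lists and tests were chosen with earlier results of these data known. Figures were drawn with matplotlib 3.10.9.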

Additional observations from a re-analysis of the deposited data

Results flagged for a closer look

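Of 17 subunit genes whose 4 PrkciffAlbcre livers were examined for a library far from the rest, 1 was picked out. Usmg5, a small accessory subunit, was at 31.0, 32.4, 50.17 and 33.4 CPM in PrkciffAlbcre livers 1 to 4, against 36.2, 31.5 and 32.2 CPM in Prkciff livers, and 100% of its 75-nt coding windows also occur in Gm14539. The gap of PrkciffAlbcre 3 to its nearest neighbour was 0.870 of the range of its group, above Dixon's 95% critical value for 4 samples, and chance alone picks out about 1 in 20 such groups. In Atp5e the same library reached 0.824, just short of that value. The part of transcript length, described above for this library, was not tested.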

How the results depend on the processing

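Of 190 values of the 10 subunit genes under 19 alternatives, 185 kept their direction and their side of the threshold. Many of these alternatives refit the same counts, and without robust estimation every fold change was identical, so the values are not separate checks. The sign turned for Atp5g1 with library size only (0.089), for Atp5g3 with Prkciff 3 as the lone control (-0.033), and for Atp5o without Prkciff 3 (-0.0017) and without PrkciffAlbcre 3 (-0.037), where the range with 1 library left out was -0.037 to 0.088. Members past the threshold numbered 1 in DESeq2 (Atp5c1) and 0 under every other alternative. Members higher at an unadjusted p of 0.05, with the share of all genes in parentheses, numbered 7 with library size only (21.4%), 4 in DESeq2 (8.15%), 4 in limma-voom (8.69%), 1 with the acute phase covariate (8.11%), 0 with the lone control (6.33%), and 0 to 4 when 1 library was left out (6.69% to 12.1%). The median log2 fold change of the 10 was 0.46 with library size only and 0.19 to 0.27 when 1 library was left out. Over all genes, the numbers higher and lower were 418 and 80 with library size only, 612 and 505 in DESeq2, 70 and 67 in limma-voom, 56 and 46 with the acute phase covariate, 5 and 4 with the lone control, and, when 1 library was left out, 21 to 659 higher and 10 to 651 lower. With the lone control, Prkciff 3 is assumed to vary like the PrkciffAlbcre livers. With the replicate block 50 genes were higher, 24 lower and 0 members had an unadjusted p under 0.05 (6.87% of all genes higher). Deviations of same-numbered libraries from their group means correlated at -0.05, 0.07 and -0.14. With so few libraries in a group, these values cannot show whether same-numbered libraries shared a batch. The labels do not say what the number marks. The cause of these changes was not tested. Depth limited none of the 10 genes to few reads, the lowest count being 186 (Atp5g2 in Prkciff 1), and 4 against 3 libraries limit the precision.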
